A study of Mus musculus with 2 samples.

Results

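The replication-dependent histone genes of the mouse were followed in the adrenal gland of newborn females. They were taken by symbol (Hist1h, Hist2h, Hist3h or Hist4h) and kept where the annotation gave at least 1 protein-coding transcript, without use of any measured level. Of 70 genes with such a symbol, 67 were kept out of 55536 annotated genes, and 3 pseudogenes (Hist1h2aj, Hist1h2al and Hist3h2bb-ps) were left out. The 67 genes comprised 6 H1, 18 H2A, 18 H2B, 12 H3 and 13 H4 genes. On the build GRCm38 (mm10), 54 lay in the Hist1 cluster on chromosome 13 between 21715763 and 23934851, and 10 in the Hist2 cluster on chromosome 3 between 96219865 and 96270132. Hist3h2a and Hist3h2ba lay on chromosome 11, and Hist4h4 lay alone on chromosome 6. The leading transcript model had 1 exon in 65 of the 67 genes.

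H2A, H2B, H3 and H4 are the core histones around which DNA is wrapped in the nucleosome, and H1 is the linker histone that binds the DNA between nucleosomes. The genes studied here are transcribed mainly while a cell copies its DNA, so that new DNA is packaged as it is made. Their messenger RNAs typically lack introns and a poly(A) tail and end just after a conserved hairpin, the histone stem-loop, which is bound by Slbp and cut with the help of the U7 small nuclear RNA.

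Both libraries came from adrenal glands of female mice of the strain B6CASTF1/J, a hybrid of a laboratory and a wild-derived strain, aged 4 days, and formed 1 group of 2 biological replicates with no treatment named. Each library was made from 300 ng of total RNA after removal of ribosomal RNA, so transcripts without a poly(A) tail could be captured, and spike-in RNA was added. In the labels of replicate 2 the library field names the animal number of replicate 1 and the tissue field a different one, and the donor record is the same for both replicates. With 1 group, no comparison between conditions was possible, and differences between the replicates may be technical.

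The gene tables held 31838341 expected counts in replicate 1 and 32931868 in replicate 2. All 6 markers of the adrenal cortex and all 5 of the medulla that were examined were present at 1 TPM (read counts divided by transcript length and scaled to the same total in each library) or more in both replicates, summing to 4651 and 5168 TPM for the cortex and to 1314 and 1528 TPM for the medulla. Replicate 1 stood apart by markers of other organs. The 5 pancreas markers (Ctrb1, Cela2a, Cpa1, Amy2a5 and Ins2) came to 3391 TPM there, and to 0.49 TPM in replicate 2, where Cela2a, Amy2a5 and Ins2 were at 0. The 5 kidney markers summed to 86.4 and 8.83 TPM, the 5 red blood cell markers to 5214 and 3789 TPM, and the 5 macrophage markers to 72.2 and 102 TPM. The 4 lymphocyte markers were near 0, at 0.73 and 1.54 TPM, with Cd3e at 0 in replicate 1. The part of these other tissues in the histone values was not tested, and the values of each replicate are therefore given side by side.

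The stem-loop was searched in the annotated models, because it is the feature that defines the end of these messenger RNAs. The pattern was written for the histone stem-loop, so hairpins of other sequence were not counted in any gene. It had 16 bases, with fully paired arms of 6 bases and a loop of any 4 bases. The first arm read GG, then 3 bases of C or T, then T. A match lay after the stop codon in 46 of the 67 models, or of the 52 with any bases beyond it. It began 21 to 58 bases after the stop codon, with a median of 31. In the first 100 bases after the stop codon, 8 of 40175 protein-coding transcripts of other genes had such a match, which is 0.0199%. The 46 matches took 8 forms, and the H4 genes shared none of theirs with another family. The following stretches from the annotation give an example of each form with 5 bases on either side. Capitals mark the arms and the loop.
Hist1h1c: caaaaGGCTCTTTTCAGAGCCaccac
Hist1h2bb: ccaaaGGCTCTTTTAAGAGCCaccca
Hist2h2ac: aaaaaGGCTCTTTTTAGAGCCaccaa
Hist1h3g: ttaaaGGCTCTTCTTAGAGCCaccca
Hist1h4h: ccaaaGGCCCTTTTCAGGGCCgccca
Hist1h4i: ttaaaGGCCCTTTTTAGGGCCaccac
Hist1h4b: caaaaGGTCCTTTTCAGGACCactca
Hist1h4a: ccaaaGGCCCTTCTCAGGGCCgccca
The form shown for Hist1h1c was carried by 26 genes, among them 3 H1, 10 H2A, 8 H2B and 5 H3 genes. The form of Hist1h2bb was carried by 6 genes, and those of Hist2h2ac and Hist1h3g by 1 gene each. Among the 12 H4 genes with a stem-loop, 7 carried the form of Hist1h4h, 2 that of Hist1h4i, 2 that of Hist1h4b and 1 that of Hist1h4a.

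The newborn gland held high levels of these RNAs. Summed over the 67 genes, TPM was 8976 in replicate 1 and 8658 in replicate 2, a mean of 8817 ± 225 (SD, n = 2). This was 2.28% and 2.22% of the TPM of all protein-coding genes. At least 1 TPM in both replicates was reached by 63 of the 67 genes, against 59.5% of the 21951 protein-coding genes. At least 100 TPM in both was reached by 35 of the 67, against 2.4% of protein-coding genes. The median histone gene stood at 111 TPM, and the median protein-coding gene with at least 1 TPM in both replicates at 12.4 TPM. Among all protein-coding genes ranked by mean TPM, 3 histone genes were among the first 100, 33 among the first 500 and 43 among the first 1000. The signal was spread over many genes: the highest 10 of the 67 held 40.6% of the summed TPM in replicate 1 and 41.1% in replicate 2. In expected counts, the authors' estimates of reads per gene, the 67 genes held 138579 (0.435% of all, exact Clopper-Pearson 95% interval 0.433 to 0.438%) and 138818 (0.422%, 0.419 to 0.424%). In a whole gland these levels reflect both how many cells divide and how much RNA each holds, which cannot be told apart.

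**Figure D1:**
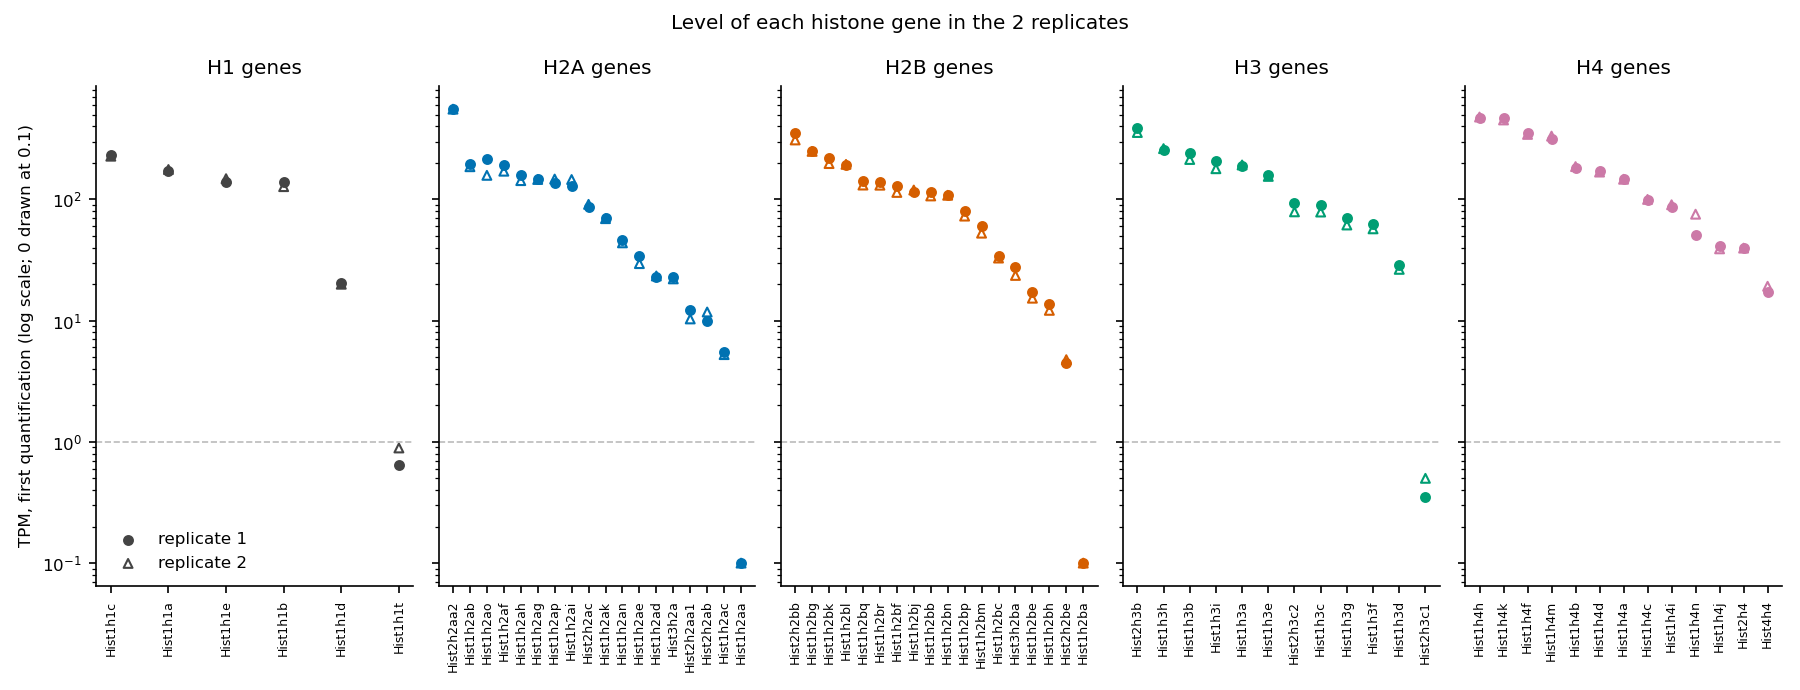
TPM of each of the 67 histone genes on a log axis, by family and in order of mean level, with a filled circle for replicate 1 and an open triangle for replicate 2. The dashed line marks 1 TPM, and genes at 0 are drawn at 0.1; 63 genes lie above the line in both replicates, and the symbols of a gene mostly overlap.

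The linker histone genes were uneven. Hist1h1c was at 234 TPM in replicate 1 and 227 in replicate 2, followed by Hist1h1a at 172 and 176 TPM, Hist1h1e at 139 and 148 TPM and Hist1h1b at 139 and 127 TPM. The last 2 did not keep their order between replicates. Hist1h1d was lower, at 20.6 and 19.95 TPM. Hist1h1t, a linker histone gene known for its expression in the testis, was at 0.64 and 0.89 TPM, from 16 and 23 expected counts. The H1 genes together held 705 and 699 TPM, 7.96% ± 0.16 of the summed TPM.

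The H2A genes held 2046 and 1957 TPM, 22.7% ± 0.138 of the sum. Hist2h2aa2 was the highest of all 67 genes, at 559 and 555 TPM. Its level cannot be separated from that of its near-copy Hist2h2aa1, listed at 12.3 and 10.3 TPM, as shown further on. Next came Hist1h2ab at 195 and 186 TPM, Hist1h2ao at 217 and 158 TPM and Hist1h2af at 192 and 171 TPM, whose ranges overlapped. In the middle of the family were Hist1h2ah (160 and 143 TPM), Hist1h2ag (148 and 146), Hist1h2ap (135 and 147) and Hist1h2ai (129 and 146), whose order changed between replicates. Hist2h2ac (86.6 and 90.9), Hist1h2ak (69.8 and 69.3) and Hist1h2an (46.0 and 43.8) kept theirs. Hist1h2ae stood at 34.2 and 29.5 TPM, Hist1h2ad at 23.1 and 23.3 TPM and Hist3h2a at 23.0 and 22.1 TPM. At the low end were Hist2h2ab at 9.94 and 11.8 TPM and Hist1h2ac at 5.53 and 5.24 TPM. Hist1h2aa, which encodes a testis form of H2A, had no counts in either replicate, which allows a share of up to 9.42e-06% of the counts in replicate 1 and 9.11e-06% in replicate 2.

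The H2B genes held 2006 and 1873 TPM, 21.99% ± 0.502 of the sum. Hist2h2bb led with 356 and 309 TPM, Hist1h2bg followed with 252 and 249 TPM, and Hist1h2bk with 219 and 197 TPM. Each of these was higher than the next in both replicates. They were followed by Hist1h2bl at 193 and 194 TPM, and by Hist1h2bq, Hist1h2br, Hist1h2bf, Hist1h2bb, Hist1h2bj and Hist1h2bn, which lay between 107 and 141 TPM. The levels of Hist1h2bq and Hist1h2br cannot be separated, as shown further on. Their deposited TPM intervals in replicate 1 ran from 28.4 to 229 and from 39.7 to 241. Hist1h2bp (79.8 and 72.8 TPM) and Hist1h2bm (60.3 and 52.6) came next, and Hist1h2bc (34.0 and 32.8), Hist3h2ba (27.7 and 23.6), Hist1h2be (17.3 and 15.3) and Hist1h2bh (13.8 and 12.2) below them. Hist2h2be was at 4.43 and 4.76 TPM. Hist1h2ba, the testis H2B gene that lies beside Hist1h2aa, had no counts in either replicate in these tables.

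The H3 genes held 1785 and 1660 TPM, 19.5% ± 0.506 of the sum. Hist2h3b was at 389 and 356 TPM, Hist1h3h at 256 and 262 TPM, Hist1h3b at 239 and 213 TPM and Hist1h3i at 207 and 179 TPM. Hist1h3a (188 and 192 TPM) overlapped with Hist1h3i, and Hist1h3e (160 and 155 TPM) lay below both. Of the others, Hist2h3c2 (93.4 and 78.9 TPM) and Hist1h3c (90.1 and 78.6) overlapped, and Hist1h3g (70.0 and 61.5) and Hist1h3f (63.0 and 57.1) did so as well, with Hist1h3d at 28.7 and 26.5 TPM. Hist2h3c1 was the only H3 gene under 1 TPM, at 0.35 and 0.50 TPM.

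The H4 genes held the largest share, 2434 and 2469 TPM or 27.8% ± 0.986 of the sum, and all 13 were above 10 TPM in both replicates. Hist1h4h (465 and 477 TPM) and Hist1h4k (467 and 452 TPM) exchanged places between replicates. Hist1h4f at 351 and 343 TPM and Hist1h4m at 316 and 332 TPM came next. Hist1h4b (182 and 186 TPM), Hist1h4d (171 and 168), Hist1h4a (148 and 146), Hist1h4c (98.1 and 99.9) and Hist1h4i (85.7 and 90.2) followed without overlap. Hist1h4n (51.3 and 75.4 TPM) varied most of the 13, Hist1h4j was at 41.5 and 39.1 TPM and Hist2h4 at 39.4 and 39.6 TPM, and Hist4h4 was lowest at 17.4 and 19.2 TPM. By cluster, the Hist1 genes held 82.0% and 82.4% of the summed TPM and the 10 Hist2 genes 17.3% and 16.8%.

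Several genes encode the same protein, so levels were also summed over identical translations of the annotated coding sequences, which gave 30 distinct proteins. All 13 H4 genes encode 1 protein, with 2452 ± 24.3 TPM (n = 2). Of the 12 H3 genes, 7 encode a first protein, at 1064 and 965 TPM, and 4 (Hist1h3a, Hist1h3g, Hist1h3h and Hist1h3i) encode a second that differs from it at 1 of 136 residues, at 721 and 694 TPM. The first protein was the higher in both replicates. Among H2A genes, 9 share a protein at 933 and 884 TPM, and Hist2h2aa1 and Hist2h2aa2 share another at 571 and 565 TPM that differs from it at 4 residues. Among H2B genes, 6 share a protein at 826 and 798 TPM, and Hist1h2bc, Hist1h2be and Hist1h2bg share a further one at 303 and 297 TPM.

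The annotated models of these genes differ widely in how far they run past the stop codon, and TPM depends on that length. No bases beyond the stop codon were annotated for 15 genes, and 6 had 3′ bases without a match to the stem-loop pattern. In 22 models the transcript ended 3 to 57 bases past the stem-loop, and in 24 it ran on for 74 to 4884 bases, with a median of 603. The 24 long models had a median of 39.9 TPM, against 144 TPM for the 22 models ending near the stem-loop and 135 TPM for the 15 without 3′ bases. When the same counts were divided by coding length alone, the order turned: the medians were 162 CPM (counts scaled to library size) per kb of coding sequence for the long models, 137 for those ending near the stem-loop and 101 for those without 3′ bases. Hist1h1d, with a model of 7425 bases of which 666 are coding, was at 221 and 214 CPM per kb of coding sequence, and Hist1h1c at 522 and 506. On that scale Hist2h2aa2 was still first (596 and 591), followed by Hist1h4d (555 and 546) and Hist1h4h (540 and 554), which exchanged places between replicates. More than 1 transcript was annotated for 5 genes. In Hist1h2be, the transcript of 2506 bases held 93.0% and 82.1% of the gene's TPM. In Hist1h2bp, that of 469 bases held 98.4% and 99.6%. Where the reads of a gene lie within its model was not analysed here.

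**Figure D2:**
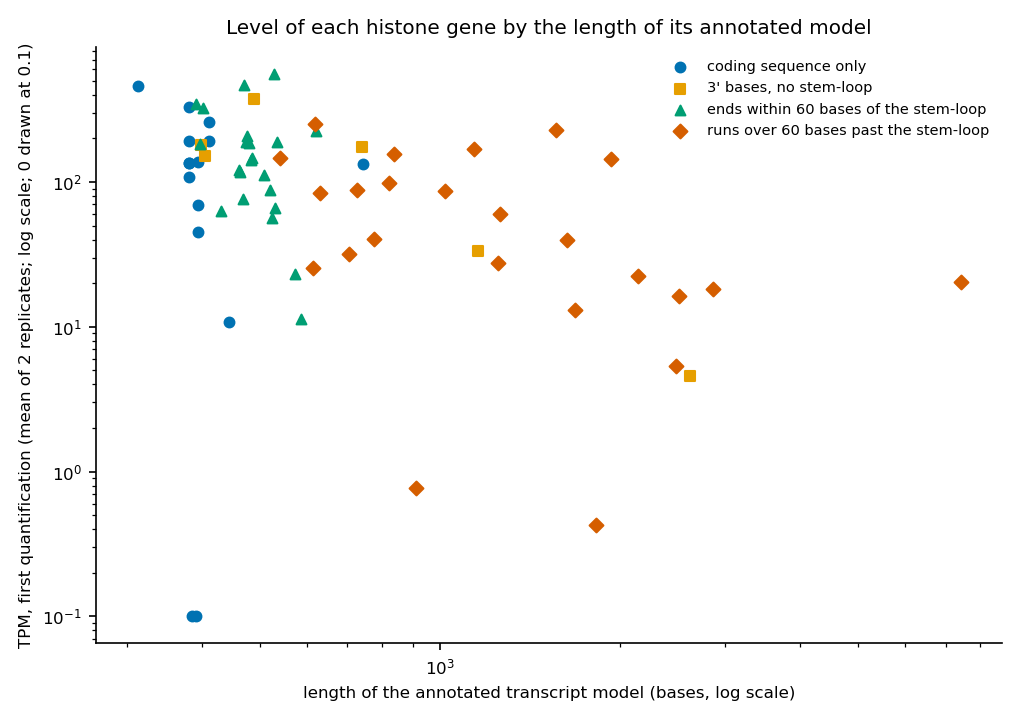
Mean TPM of each histone gene (log axis, n = 2) against the length of its annotated model in bases (log axis), with a symbol for where the model ends. The 24 models that run more than 60 bases past the stem-loop extend to 7425 bases, and their median of 39.9 TPM is the lowest of the 4 kinds.

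Promoters were examined for motifs that the members of a family share. RefSeq promoter windows of 300 bases (250 before the start and 50 after it, GRCm38.p6) matched 62 of the 67 genes, in 61 of which the RefSeq start lay within 100 bases of that of the model. The 32851 windows of all genes served as background. Motifs were counted on both strands, and in no member did matches of different motifs overlap. CCAAT, the letters bound by the factor NF-Y, was present in all 50 windows of H1, H2A, H2B and H3 genes but in 3 of the 12 H4 windows, those of Hist1h4a, Hist1h4c and Hist1h4d, against 37.4% of all windows. TATAAA was present in 35 of 62, against 13.6%. ATTTGCAT, the octamer bound by Oct1 (Pou2f1), was present in 7 of 18 H2A and 6 of 16 H2B windows and in no H1, H3 or H4 window, against 1.74%. AAACACA, known as the H1 box, was present in 5 of 6 H1 windows, 2 H2A and 2 H2B windows and no H3 or H4 window, against 7.18%. Windows of the head-to-head H2A and H2B pairs described below overlap, so a single match can count for both genes. Both windows held the octamer in Hist1h2aa and Hist1h2ba, in Hist1h2ae and Hist1h2bg and in Hist1h2ah and Hist1h2bk. In Hist1h2aa and Hist1h2ba both also held AAACACA. The H2A and H2B counts are therefore not independent. A match describes the letters of a window and does not show that a factor binds.
The 150 bases before the RefSeq start are given for the highest gene of each family in the tables used so far. In a second set of tables, described below, Hist1h1a, Hist2h2aa1 and Hist1h2bb led the H1, H2A and H2B genes instead. The stretches run in the direction of transcription, with the matches to these 4 motifs on either strand in capitals.
Hist1h1c: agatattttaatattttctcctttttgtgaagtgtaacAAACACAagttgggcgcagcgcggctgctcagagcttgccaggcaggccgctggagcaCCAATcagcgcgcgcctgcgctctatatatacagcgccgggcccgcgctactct
Hist2h2aa2: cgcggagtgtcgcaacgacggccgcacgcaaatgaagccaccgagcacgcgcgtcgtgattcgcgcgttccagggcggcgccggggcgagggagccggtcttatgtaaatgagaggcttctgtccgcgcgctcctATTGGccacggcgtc
Hist2h2bb: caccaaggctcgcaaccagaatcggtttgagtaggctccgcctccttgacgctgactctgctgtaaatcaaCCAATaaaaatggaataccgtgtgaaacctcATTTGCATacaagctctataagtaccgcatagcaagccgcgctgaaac
Hist2h3b: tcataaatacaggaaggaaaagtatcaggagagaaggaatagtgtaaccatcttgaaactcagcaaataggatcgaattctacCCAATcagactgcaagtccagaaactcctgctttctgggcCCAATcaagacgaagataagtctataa
Hist1h4h: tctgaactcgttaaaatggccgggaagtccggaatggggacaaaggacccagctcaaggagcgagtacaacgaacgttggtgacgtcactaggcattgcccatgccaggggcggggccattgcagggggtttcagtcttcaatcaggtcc
They lie at chr13:23738657-23738806 (plus strand) for Hist1h1c, chr3:96240375-96240524 (minus strand) for Hist2h2aa2, chr3:96269550-96269699 (plus strand) for Hist2h2bb, chr3:96268504-96268653 (plus strand) for Hist2h3b and chr13:23530894-23531043 (plus strand) for Hist1h4h. In Hist1h1c the H1 box begins at position -112 and CCAAT at -54, counted from the RefSeq start. In Hist2h2bb CCAAT begins at -79 and the octamer at -48. Hist2h3b holds CCAAT at -67 and -27, Hist2h2aa2, whose RefSeq start lies 98 bases from that of the model, holds it on the other strand at -15, and the Hist1h4h stretch holds none of the 4 motifs.

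Many H2A and H2B genes lie head to head. There were 12 such pairs, all but Hist2h2ac and Hist2h2be in the Hist1 cluster, with starts 176 to 306 bases apart, so the promoter windows of paired genes overlap. In 11 pairs both genes had counts, and in 7 of them the H2A and H2B levels were within 2-fold of each other in both replicates. Among the 7 were Hist1h2ao with Hist1h2bq and Hist1h2ap with Hist1h2br. Hist1h2bq and Hist1h2br have an identical leading model that was given equal counts, so the ratios of these pairs depend on how shared reads were divided. Across pairs the Pearson correlation of log2 TPM was 0.20. H2A and H2B genes that are not paired were not compared in this way, so the values do not show that pairing matches levels. Hist2h2ac and Hist2h2be were the furthest apart, with 86.6 and 90.9 TPM for the H2A gene and 4.43 and 4.76 TPM for the H2B gene. The log2 ratio of the H2A over the H2B level was 4.29 in replicate 1 and 4.26 in replicate 2, and 4.38 and 4.30 in a second set of tables described next. The H2B gene was the higher beyond 2-fold in Hist1h2ae and Hist1h2bg (log2 ratio -2.88 and -3.07), in Hist1h2ac and Hist1h2bc (-2.62 and -2.65) and in Hist1h2ad and Hist1h2bf (-2.48 and -2.29). Of these 3, the pair Hist1h2ac and Hist1h2bc held in the second set of tables (-3.44 and -3.55), where Hist1h2ae and Hist1h2bg came to 0.17 and 0.15 and Hist1h2ad and Hist1h2bf to 0.74 and 0.85. Over the 11 pairs, 3 kept 1 direction in both sets and both replicates, and the other 8 did not. In the second set 5 pairs were within 2-fold in both replicates.

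**Figure D3:**
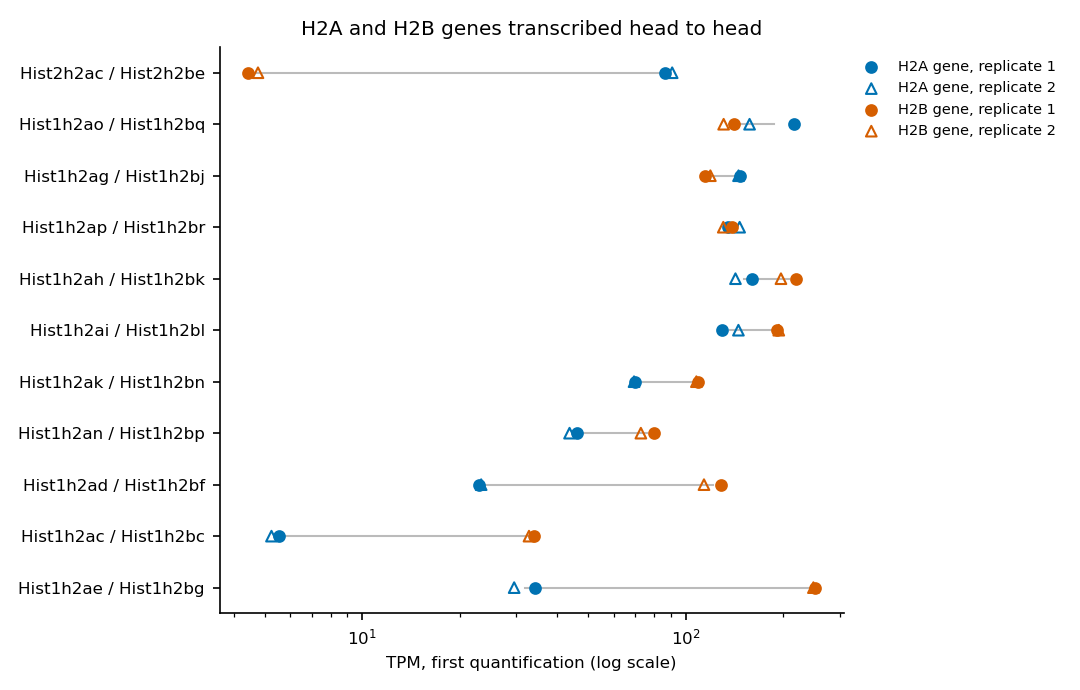
TPM (log axis) of the H2A gene (blue) and the H2B gene (orange) of the 11 head-to-head pairs with counts, with filled circles for replicate 1, open triangles for replicate 2 and a grey line joining the means. The pair Hist2h2ac and Hist2h2be stands out with 86.6 and 90.9 against 4.43 and 4.76 TPM, and 7 pairs lie within 2-fold.

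The authors deposited 2 quantifications of the same libraries. The first, used above, was made from alignments to the transcriptome, and the second from the read files themselves. Such a comparison bears on histone genes in particular because many are near-copies: 8 of the 67 share their whole coding sequence with another member, 21 are at least 99% identical to another member and 48 at least 95%. The second quantification gave the 67 genes 97375 counts in replicate 1 and 96256 in replicate 2, fewer than the first, but 15070 and 14264 TPM, more than the first. The effective length that enters TPM was 99 bases below the model length in the first tables and 330 or 331 bases below it for long models in the second. For Hist1h4k, with 312 bases, it was 213 bases in the first and 70.6 bases in the second tables of replicate 1. The other RNAs that share the total also enter TPM. Rn7sk, an RNA without a poly(A) tail, held 58973 and 53120 TPM in the first tables and 1.83 and 1.18 in the second. For 8096 other protein-coding genes of 2000 bases or more, the median log2 ratio of the first over the second TPM was -0.83. How much each of these contributed to the histone TPM was not tested.

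For the 58 histone genes with at least 1 TPM in both tables and both replicates, the median log2 ratio of the first over the second TPM was -0.66, against -0.86 over 13016 protein-coding genes. On this scale 22 of the 58 differed by 2-fold in both replicates, against 23% of protein-coding genes. Of the 58, 18 were lower in the first tables, against 22.9% of protein-coding genes, and 4 were higher, against 0.0922%. Relative to the shift of -0.86 that protein-coding genes share, 6 of the 58 were lower and 10 higher by 2-fold, against 0.545% and 0.353% of protein-coding genes. In counts rather than TPM, 4 were lower and 22 higher by 2-fold, against 0.423% and 0.476%, and the median log2 ratio was 0.81 for the histone genes and -0.15 for protein-coding genes. Length went with the ratio: for models under 500 bases the median log2 count ratio was 1.51 for 24 histone genes and 0.23 for 96 other protein-coding genes, and from 2000 bases it was 0.17 for 6 and -0.16 for 8096. Detection was similar in the second tables, where 60 of the 67 reached 1 TPM in both replicates.

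Single genes moved much further than the families. Hist2h2aa2 had 7387 and 7576 counts in the first tables and none in the second, whereas Hist2h2aa1 had 184 and 160 in the first and 6921 and 6982 in the second. All 528 bases of the Hist2h2aa2 model recur within the 586 bases of the Hist2h2aa1 model. Summed over the pair, the counts were 7571 and 7736 in the first and 6921 and 6982 in the second tables, so the pair's sum differed far less than the counts of its members.

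Hist1h2bq and Hist1h2br share an identical model of 381 bases, and the first tables gave this model 1203 counts in replicate 1 and 1162 in replicate 2 under each of the 2 names. The second tables gave it 0 under both names, and 34.5 and 35.3 counts to all transcripts of the 2 genes together. Here the sum over the pair differed as well. Summed over Hist1h2ao and Hist1h2ap, which share 452 bases without a difference, the counts were 4145 and 3707 in the first and 1774 and 1489 in the second tables. Summed over Hist1h4m and Hist1h4n, which share 366 bases, they were 3475 and 4001 against 893 and 990.

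Genes without an identical partner also differed. In TPM, the 4 that were higher in the first tables by 2-fold were Hist1h4f (log2 TPM ratio 3.79), Hist1h4d (2.05), Hist1h2bl (1.53) and Hist2h4 (1.20). After Hist2h2aa1 (-6.80), which has such a partner, the lowest of the 58 were Hist1h2ad (-5.21), Hist1h2ae (-2.84), Hist1h2be (-2.82) and Hist1h2bb (-2.27). Hist1h4f had 3157 and 3192 counts in the first and 58.0 and 54.0 in the second tables, and Hist1h4d had 5461 and 5554 against 724 and 705. In the other direction, Hist1h2ad had 336 and 351 counts against 4573 and 4468, and Hist1h2be had 1280 and 1166 against 5528 and 5267. The testis gene Hist1h2ba, without counts in the first tables, had 457 and 386 in the second, while its neighbour Hist1h2aa had 3.03 and 1.01. Whether Hist1h2ba was expressed in these glands therefore cannot be read from its level in either table alone.

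By family, the counts of the first over the second tables, pooled over replicates, were 1.09-fold for H1, 1.22-fold for H2A, 1.30-fold for H3, 1.45-fold for H2B and 2.80-fold for H4. The H4 share of the summed TPM was 27.8% in the first and 20.6% in the second tables, and the H2A share 22.7% and 30.1%, so the family with the largest share was H4 in the first and H2A in the second. The shares of H1 (7.96% and 8.29%), H2B (21.99% and 19.6%) and H3 (19.5% and 21.5%) moved less.

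**Figure D4:**
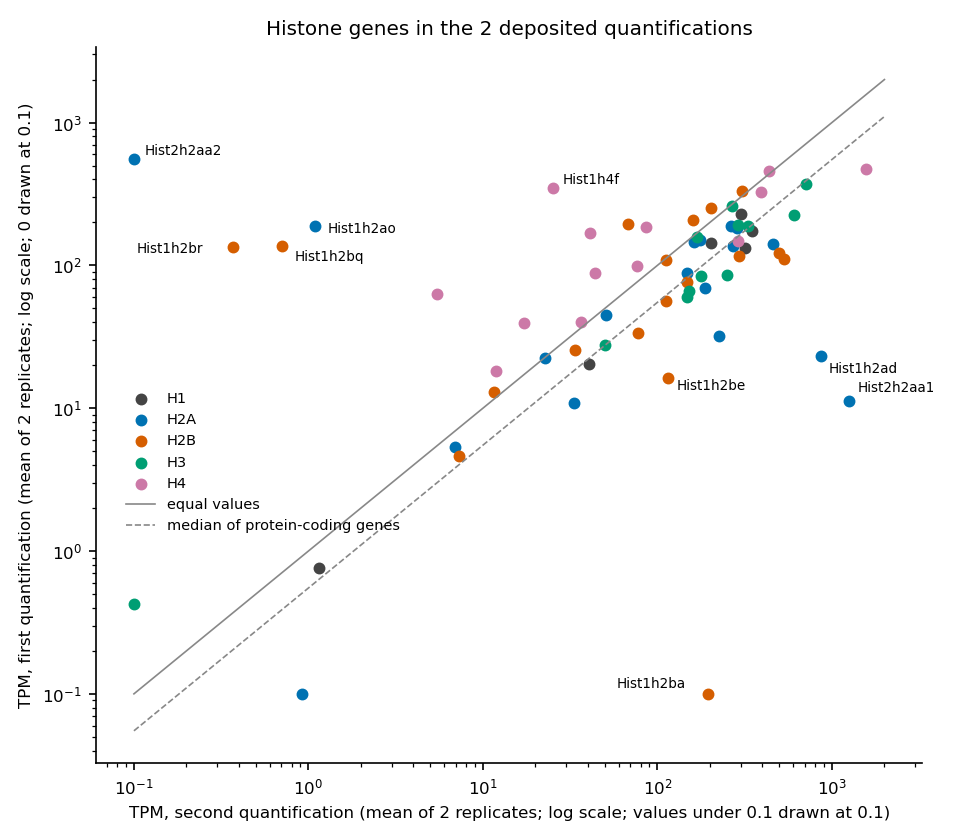
Mean TPM of each histone gene in the first quantification against the second (both log axes, n = 2, colours by family), with values under 0.1 drawn at 0.1. The solid line marks equal values and the dashed line the median of protein-coding genes, a log2 ratio of -0.86; Hist2h2aa2 and Hist2h2aa1 lie far off the line on opposite sides.

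The replicates differed little. For the 64 genes that averaged 20 counts or more, the ratio of replicate 2 over replicate 1 was taken from expected counts scaled by TMM, a factor that centres the libraries on genes that change little. Their median log2 ratio was -0.005, against 0.010 over 17512 annotated genes, with 34 genes lower and 30 higher in replicate 2 (48% of annotated genes were lower). The split was 50 lower and 14 higher under spike-in scaling, and 43 and 21 from the deposited TPM. These scalings also lowered the median of all annotated genes. Against that median, a comparison chosen after seeing the data, 35 were lower and 29 higher under spike-in scaling. From the deposited TPM they were 34 and 30. In the second quantification 43 were lower than that median and 21 higher, with a median difference of -0.03, and 33 were below 0 and 30 above. None of the 63 genes averaging 100 counts or more passed 2-fold, against 3.21% of annotated genes at that count. In 2 of the 63 the higher replicate reached 125% of the lower, against 12.9% of annotated genes. Of these, 1 was lower in replicate 2, against 6.66%, and 1 higher, against 6.25%. Of the 64, 58 were within 0.2 on the log2 scale.

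The genes past that ratio were Hist1h2ao, with 2548 counts in replicate 1 and 1914 in replicate 2 (log2 ratio -0.42, 95% counting interval -0.50 to -0.33), and Hist1h4n, with 523 and 795 counts (0.60, 0.44 to 0.76). Each has a partner with an identical coding sequence, Hist1h2ap (0.16) and Hist1h4m (0.12). Summed over the pair, the ratio was -0.17 for Hist1h2ao with Hist1h2ap and 0.20 for Hist1h4m with Hist1h4n, so neither pair passed it. The counting interval of 26 of the 64 genes did not include 0, against 38.3% of annotated genes at 20 counts or more. It lay below 0 in 17, against 17.7%, and above 0 in 9, against 20.6%. The interval covers sampling of reads only.

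Families leaned in different directions by small amounts. Of the 13 H4 genes, 11 were higher in replicate 2 with a median of 0.07, while 12 of 17 H2B genes and 9 of 12 H3 genes were lower with a median of -0.09 each. The H1 genes were 3 higher and 2 lower, and the H2A genes 8 higher and 9 lower. Scaling by the spike-ins or by the deposited TPM lowered the median over the annotated genes to -0.07 and -0.04, against 0.01 under TMM. With these 2 scalings, 5 and 8 of 13 H4 genes were above 0. Each family was therefore also set against the median of all annotated genes under the same scaling, a comparison chosen after seeing the data. On that basis 11 of 13 H4 genes were higher in replicate 2 under TMM, DESeq2 size factors and spike-ins, which differ only by a constant, and 11 of 13 from the deposited TPM. In the second quantification 7 of 13 were, with a median 0.02 above that of all genes. For H2B, 12 of 17 genes lay below the median of all genes in the first tables and 13 of 17 in the second, where the median difference was -0.08. For H3, 9 of 12 lay below it in both, but the median difference was -0.10 under TMM and -0.03 in the second quantification. For H2A, 9 of 17 lay below it under TMM and 13 of 17 in the second quantification, with median differences of -0.02 and -0.03. For H1 it was 3 of 5 and 2 of 5. The pancreas, kidney and red blood cell markers were higher in replicate 1, and their part in these differences was not tested.

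**Figure D5:**
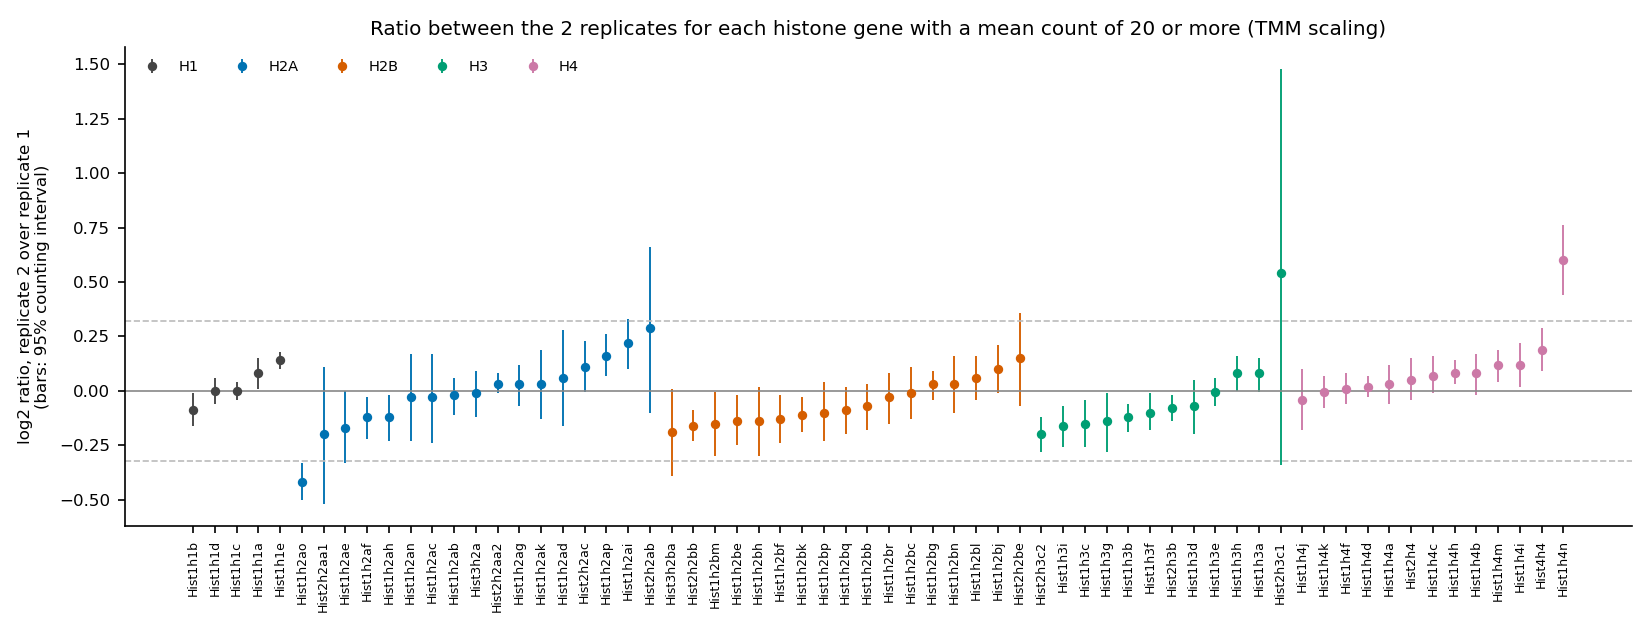
Log2 ratio of replicate 2 over replicate 1 for the 64 histone genes averaging 20 counts or more, by family, with 95% counting intervals as bars and dashed lines where the higher replicate is at 125% of the lower. Hist1h2ao lies at -0.42 and Hist1h4n at 0.60 with intervals beyond the dashed lines, and Hist2h3c1 has the widest interval.

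Antisense and overlapping genes were checked, since the labels do not state whether counting used strand. On the opposite strand, exons of 22 annotated genes overlapped 21 histone genes, among them all 18 H2A genes. They comprised 17 miRNA and 5 antisense genes, with 569 and 444 counts in all. Only Gm20633, Gm20632 and Gm20628 averaged 20 counts or more. On the same strand 7 histone genes overlapped another gene, among them Hist1h1e and Hist1h2be, whose annotated models overlap each other. Reads of such genes could be shared between them.

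Other genes of histone biology were looked up in 4 lists. The replication-independent histone genes, which supply histones outside DNA replication, were led by H3f3a at 371 and 369 TPM and H3f3b at 302 and 267 TPM, the genes of the H3.3 variant, with H1f0 at 133 and 122 TPM and H2afz at 133 and 128 TPM. Their 14 genes summed to 1204 and 1128 TPM, of which 11 had at least 1 TPM in both replicates. H3f3a and H3f3b together stood below the 1785 and 1660 TPM of the replication-dependent H3 genes. Slbp, the stem-loop binding protein, was at 25.6 and 24.5 TPM, and Npat and Casp8ap2, which act in histone gene transcription, at 8.70 and 6.95 and at 5.54 and 4.88 TPM.
The processing list, of which 22 of 23 symbols were found, summed to 486 and 453 TPM and was led by Srrt (96.0 and 75.2 TPM), which works with the cap-binding complex, by the Sm proteins Snrpb (83.2 and 85.5) and Snrpd3 (40.9 and 40.4), which are part of small nuclear RNPs, and by Sympk (42.5 and 36.2), a scaffold of the cleavage complex. Lsm10 and Lsm11, the proteins particular to the U7 particle, were at 9.54 and 10.9 TPM and at 4.42 and 3.80 TPM. The U7 RNA gene Rnu7 had no counts in either replicate. In the first tables the effective length was 99 bases below the model length, so a shorter RNA could not be quantified there. Absence of the U7 RNA therefore cannot be read from this value. The 20 chaperone genes, whose proteins carry and deposit histones, summed to 916 and 872 TPM, led by Npm1 (177 and 169), Nap1l1 (89.2 and 80.4), Rbbp7 (86.7 and 88.3) and Rbbp4 (73.7 and 76.0). In these lists 11 of 21 processing genes, 11 of 20 chaperone genes and 7 of 11 replication-independent histone genes that averaged 20 counts or more were lower in replicate 2 under TMM. Under spike-in scaling, which lowered all genes, these counts were 19, 16 and 10. Against the median of all annotated genes they were 11, 11 and 7 under either scaling.
The 23 genes of S phase, such as the replication clamp Pcna (57.7 and 56.6), the helicase subunits Mcm7 (41.5 and 39.9) and Mcm6 (39.5 and 42.5) and the topoisomerase Top2a (40.8 and 40.5), were all at 1 TPM or more and summed to 528 and 529 TPM. Of these 23, 18 were higher in replicate 2 under TMM, with a median log2 ratio of 0.07, beside 48% of annotated genes that were lower. Under spike-in scaling 10 of the 23 were higher, and against the median of all annotated genes 16 were, under either scaling. No gene of the 4 lists that averaged 20 counts or more passed 2-fold between replicates, against 5.67% of annotated genes at that count. In 2 of the 75 the higher replicate reached 125% of the lower, against 22.4%: Ccne2, which encodes cyclin E2 (log2 ratio 0.41), and Zfp473, which acts in histone RNA processing (-0.47, from 36 and 26 counts, interval -1.26 to 0.29).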

How the data were processed

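Total RNA-seq tables of 2 replicates were analysed. The expected counts, TPM, posterior mean TPM and posterior standard deviation of the count (a signal of assignment uncertainty) per gene and transcript were deposited by the authors, who name the assembly mm10, the annotation M21 and transcriptome alignments in their notes. The estimated counts and TPM of the second quantification were made from the read files per the same notes and were summed to genes here. Which aligner and quantifiers were used is not stated in the labels. The members and gene lists were chosen with earlier results of these data known.

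Total counts were 31838341 and 32931868. Without molecular identifiers, reads may stem from the same molecule, so the exact 95% Clopper-Pearson intervals and floors of 3 counts cover counting error only. Of 65 genes with counts, 11 had a posterior SD above 5% of the count in both replicates, and 4 had one above 20%. Replicate ratios used expected counts rounded for TMM factors (1.02 and 0.985, edgeR 4.0.16) and a prior of 0.5 counts. Quantification ratios used log2(TPM + 0.01). Rules of size, not tests, were applied at 2-fold and at 125% of the lower replicate. The ratio was checked on simulated counts with sampling noise only and planted changes well past 2-fold. That check therefore covers the arithmetic, and neither reads shared among near-copies nor the 125% rule. DESeq2 1.42.0 size factors, spike-in scaling, other filters, priors and pseudocounts were alternatives. Proteins were grouped by translating annotated coding sequences (Biopython 1.88) instead of by RefSeq protein. Genes named were those of at least 5 TPM, the highest 2 of each family, those furthest apart between quantifications, testis genes, and genes at 0. In other lists they were the 4 highest and those past 2-fold. Genes named for another reason were chosen after their values were seen. Promoters came from RefSeq (GRCm38.p6), stem-loops from GENCODE M21. Python 3.11.15 and R 4.3.3 were used.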

Additional observations from a re-analysis of the deposited data

How the results depend on the processing

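No paired analysis was possible because there was 1 group with 2 replicates and nothing to pair. Ratios between the replicates cannot be recomputed without either of them. Over 27 results and 69 alternative values that keep both replicates, 33 stayed within the spread between replicates or within 1.5 times a count. For a mean, leaving out either replicate gives the value of the other, which lies within that spread by construction and says nothing of stability. Between the replicates, the higher reached 125% of the lower in 4 genes instead of 2 with no filter on low counts.

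The second quantification moved most values: the summed TPM from 8817 to 14667, the shares of H1 to 8.29%, H2A to 30.1%, H2B to 19.6%, H3 to 21.5% and H4 to 20.6%. A rise in TPM was not particular to histone genes. Over protein-coding genes the median log2 ratio of the first over the second TPM was -0.86, and the sums given here were not corrected for it. Per protein, the second quantification gave 2305 TPM for the 9 H2A genes (909), 1254 for Hist2h2aa1 and Hist2h2aa2 (568), 970 for the 6 H2B genes (812), 395 for the 3 H2B genes (300), 2111 for the 7 H3 genes (1014), 1038 for the 4 H3 genes (708) and 3024 for H4 (2452). It gave 2227 TPM for the replication-independent histones (1166), 858 for processing (469.8), 1907 for chaperones (894) and 1000.4 for S phase (529). The share of the leading transcript became 99.4% in Hist1h2be (87.6%), 99.8% in Hist1h2bp (from 98.4% and 99.6%) and 0% in Hist1h2bq (98.3%) and Hist1h2br (99.2%). As shares of counts, H1 held 21.3%, H2A 18.1%, H2B 17.4% and H4 23.8%. Per kb of coding sequence, chosen after seeing the data, H1 held 13.2%, H2A 18.6%, H2B 18.4%, H3 19.0% and H4 30.8%. The median log2 ratio of the quantifications (-0.66) was -0.61 with a pseudocount of 1 TPM, -0.58 with no filter and -0.69 from posterior mean TPM. It reversed to 0.81 in counts and to 0.21 when centred on protein-coding genes, the latter chosen after seeing the data. The cause was not tested. Among the 64 genes averaging 20 counts or more, the counting interval was widest for Hist2h3c1, with 18.8 and 27.6 counts (log2 ratio 0.54, 95% interval -0.34 to 1.48).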
